A study of Mus musculus with 31 samples.

Results

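Mnk1, FMRP, Sirt1 and Rictor are proteins that the study put forward as putative upstream regulators of the transcripts that changed in the neonatal mouse brain after magnesium sulfate (MgSO4) or hypoxia-ischemia (HI). The transcripts examined here are those of the 4 regulators, Mknk1 (the gene of Mnk1), Fmr1, Sirt1 and Rictor, together with their closest partners Mknk2, Eif4e, Eif4ebp1, Eif4ebp2, Rptor and Mtor. The genes were chosen by name, with earlier results of these data known, since the study inferred the 4 regulators from the same arrays. No threshold on a measured value entered the rule, and each gene was read through its brightest probe, matched to its symbol by RefSeq accession. They make 10 of the 19902 named genes on the array, and all 10 were measured well enough to be tested in every group. The question put to the data was whether the transcripts of the regulators themselves moved when their listed targets did.

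RNA was measured on 31 Agilent mouse expression arrays, each carrying a Cy3 and a Cy5 sample of forebrain RNA pooled from 6 hemispheres of NMRI mice, an outbred stock, treated at day 5 of life. On the Mg arrays, Cy5 held mice injected with MgSO4 at 600 mg/kg and Cy3 held control mice, with 4 arrays each at 3, 12 and 24 h and 7 arrays at 6 h. On the HI arrays, Cy5 held mice that had undergone ligation of the right carotid followed by hypoxia (the Rice-Vannucci model), against controls in Cy3, with 3 arrays at 3 h and 3 at 12 h. On the MgHI arrays, also 3 at each time, injury was combined with MgSO4 given beforehand. The methods place these mice in Cy5 against injured mice without MgSO4, the sample titles name MgSO4-treated uninjured mice as the reference, and the study's figures place the MgHI mice in Cy3, so that MgHI ratios are given here by channel, with no direction in terms of animals. A treatment label of the HI samples also names MgSO4, against their titles and source, and they were taken as HI alone. The labels give subcutaneous injection and controls that received PBS, and the methods give intraperitoneal injection and untreated controls. The methods put controls in Cy3 and test samples in Cy5 and describe no swap of dyes, so that a difference between dyes is part of every ratio. The methods describe 3 independent samples at each Mg time, fewer than the arrays here, and a time before 3 h that no array covers. The pools are described as biological replicates, and each array was taken as a separate pool. On that reading p-values measure the spread between pools, not between mice.

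In a cell, Mnk1 and Mnk2 are kinases switched on by the ERK and p38 pathways, and both phosphorylate eIF4E, the protein that binds the cap of a messenger RNA and starts its translation. The 4E-binding proteins hold eIF4E inactive until mTOR complex 1, built around the scaffold Raptor (Rptor), phosphorylates them, while Rictor is the scaffold of mTOR complex 2, which acts on Akt. FMRP, the product of Fmr1, binds messenger RNAs on polyribosomes in neurons and restrains their translation, and its loss causes fragile X syndrome. Sirt1 is an NAD-dependent deacetylase of histones and transcription factors. Most of this control is exerted on proteins by phosphorylation or by the supply of a cofactor, which an expression array does not measure.

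Between 45.2% and 70.2% of spots were well above background on an array, and none was saturated. Ratios over all tested probes correlated at r = 0.24 to 0.68 between arrays of an HI or MgHI group, and at r = -0.15 to 0.58 between arrays of a Mg group at 3, 12 or 24 h. Among the 6 h arrays, correlations were r = 0.59 to 0.86 within replicates 1, 2 and 6 and r = 0.56 between replicates 3 and 7, which lie on the same slide, but r = -0.42 to -0.22 between these 2 sets. The direction of the 6 h ratios is therefore not settled, and 6 h values are given with and without replicates 3 and 7 where they differ in call. Since a hemisphere holds many cell types, fewer cells of a type and less RNA per cell cannot be told apart. All 6 neuron markers looked for (Tubb3, Map2, Snap25, Syt1, Stmn2 and Rbfox3) were measured in every group.

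None of the 10 transcripts differed between the channels in any of the 8 groups at an adjusted p under 0.05, by limma's test of the mean log2 ratio (Cy5 over Cy3) against 0 with Benjamini-Hochberg adjustment over all probes. By that rule the share of all tested probes called after MgSO4 was 0% at 3 h, 0.0284% at the 6 h time, 0% at the 12 h time and 0.00555% at 24 h, so that few transcripts of any kind were called there. After HI, 14.3% of probes were called at 3 h and 0.0106% at 12 h, and on the MgHI arrays 11.6% at 3 h and 0% at 12 h. The smallest adjusted p of the 10 genes over the 8 groups was 0.0793. At an unadjusted p under 0.05, 9 of the 80 gene and group means passed. In the Mg groups these were 1, 1, 0 and 1 of 10 genes at 3, 6, 12 and 24 h (Eif4e in each case), where 9.02%, 13.2%, 15.7% and 11.1% of all probes passed. On the HI arrays 2 of 10 genes passed at 3 h and 1 at 12 h, where 36.1% and 27.6% of all probes did, and on the MgHI arrays 1 of 10 at 3 h and 2 at 12 h, against 30.2% and 26.6%. The shares of the 10 genes were thus near or below those of all probes in each group.

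The intervals show how large a change could have been missed. The 95% confidence interval of the mean lay within a change of 1.5-fold either way for 61 of the 80 means. It did so for 8, 7, 7 and 9 of the 10 genes at 3, 6, 12 and 24 h after MgSO4, for 9 and 5 genes at 3 and 12 h after HI, and for 10 and 6 genes at 3 and 12 h on the MgHI arrays. A mean beyond 1.5-fold was found once, for Eif4ebp2 at 12 h after HI.

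**Figure D1:**
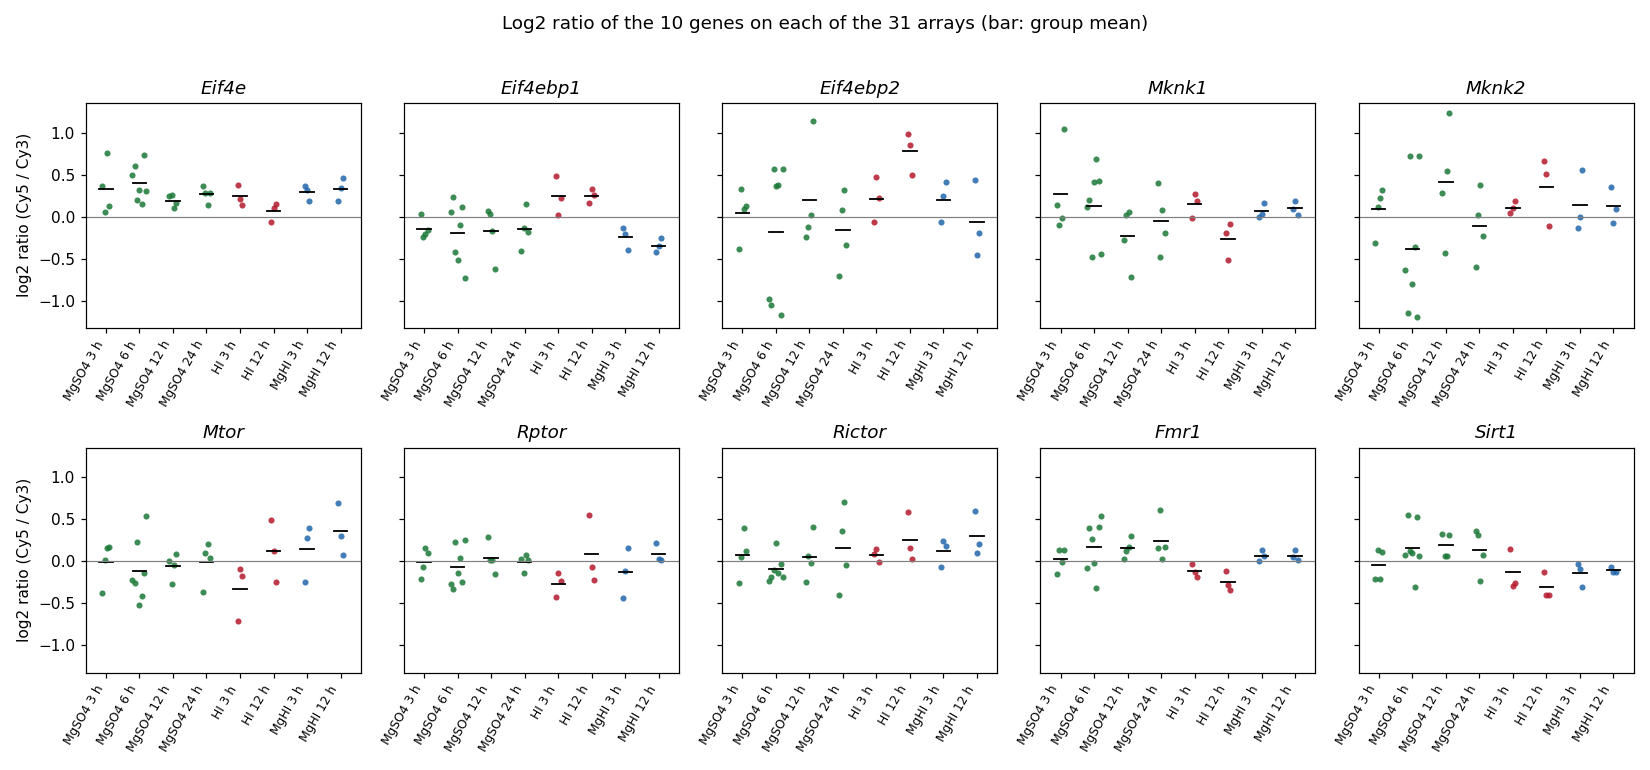
Log2 ratio of Cy5 to Cy3 (vertical axes) of each of the 10 genes on each of the 31 arrays, by group (horizontal axes; green, MgSO4 against control; red, HI against control; blue, MgHI arrays), with a bar at the group mean. Eif4e lies above 0 on 30 of 31 arrays, Eif4ebp1 lies above 0 on all 6 HI arrays and below 0 on all 6 MgHI arrays, and Mknk2 and Eif4ebp2 spread most at 6 h.

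**Figure D2:**
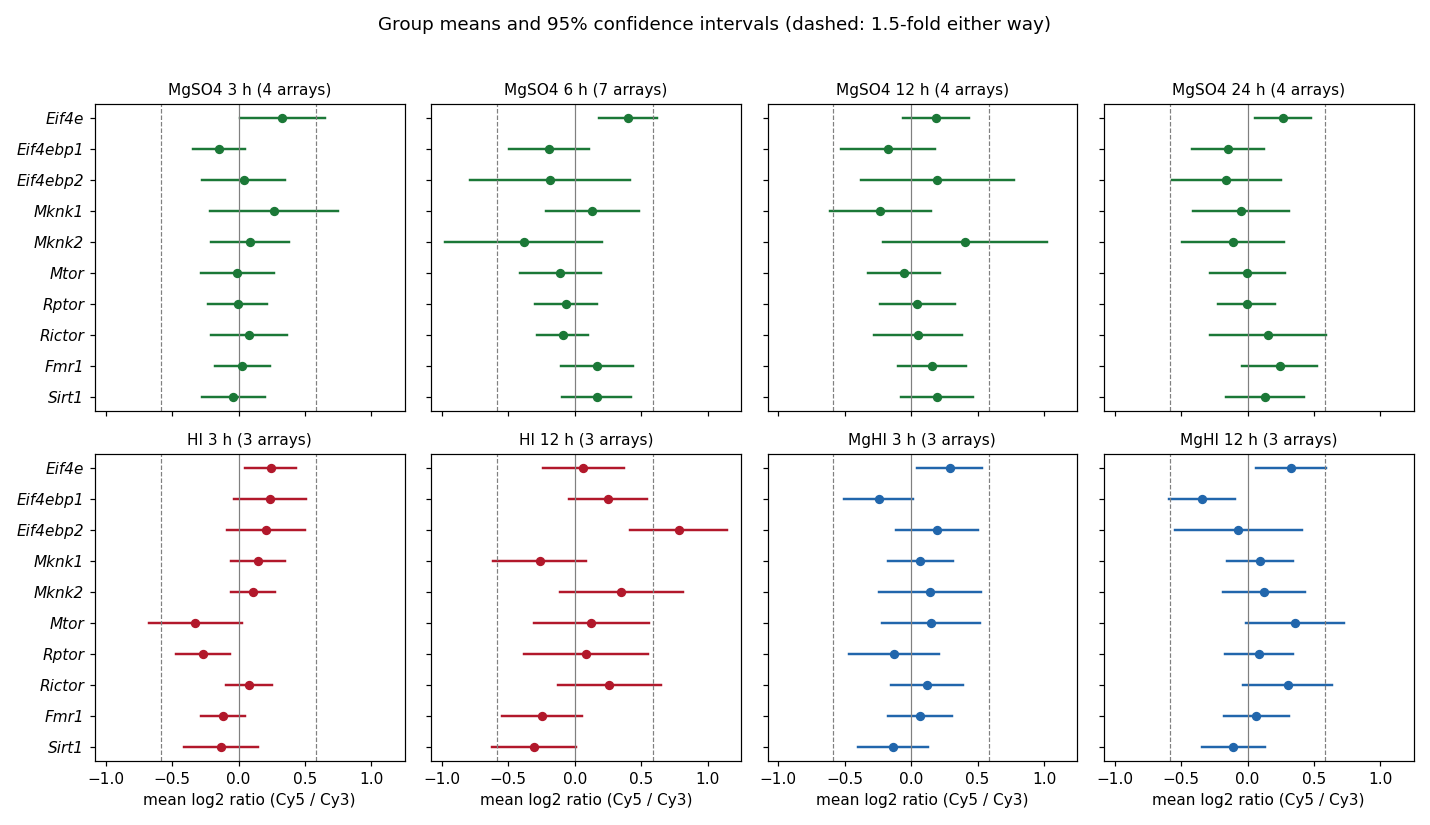
Mean log2 ratio (points) and its 95% confidence interval (lines) for the 10 genes in each of the 8 groups, with dashed lines at 1.5-fold either way. Of the 80 intervals, 61 lie between the dashed lines and 9 leave out 0.

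Eif4e, whose protein is the rate-limiting cap-binding factor and the substrate of the Mnk kinases, had the most even pattern. Its ratio was above 0 on 30 of the 31 arrays, with a median of 0.26 over all of them. In the Mg groups the 4 arrays at 3 h read 0.37, 0.06, 0.76 and 0.12, the 7 arrays at 6 h ran from 0.15 through a median of 0.32 to 0.73, the 4 at 12 h read 0.24, 0.26, 0.10 and 0.16, and the 4 at 24 h read 0.37, 0.28, 0.14 and 0.28. Every Mg array therefore had more Eif4e signal in Cy5, by means of 0.33 ± 0.32 (SD, n = 4), 0.40 ± 0.22 (n = 7), 0.19 ± 0.07 (n = 4) and 0.27 ± 0.09 (n = 4), with limma adjusted p of 0.549, 0.179, 0.374 and 0.388. Without 6 h replicates 3 and 7, the 6 h mean was 0.46 with a limma adjusted p of 0.0276, where 18.3% of all probes passed. With the sign of the 6 h ratios turned, the mean was -0.40.

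In the injured groups Eif4e also read higher in Cy5, except at 12 h after HI, where the arrays lay on both sides of 0. The 3 HI arrays read 0.38, 0.21 and 0.14 at 3 h (mean 0.24 ± 0.12, limma adjusted p = 0.0877) and -0.06, 0.10 and 0.15 at 12 h (mean 0.06 ± 0.11, adjusted p = 0.749). The 3 MgHI arrays read 0.37, 0.31 and 0.18 at 3 h (mean 0.29 ± 0.09, limma adjusted p = 0.120) and 0.19, 0.33 and 0.46 at 12 h (mean 0.33 ± 0.13, adjusted p = 0.139). The higher Cy5 signal thus appeared on arrays with different samples in Cy5, and with no dye swap described a dye effect on this probe cannot be told apart from a change in the tissue. A second Eif4e probe, dimmer than the first, had means of 0.21, 0.21, -0.04 and -0.07 at the 4 Mg times, of -0.00025 and -0.41 at 3 and 12 h after HI and of 0.11 and 0.10 on the MgHI arrays. The second probe was below 0 on all 3 HI arrays at 12 h, where the brighter probe was near 0, and its deviations from the group means correlated with those of the brighter probe at r = 0.39 over 31 arrays.

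Eif4ebp1, which encodes the inhibitor 4E-BP1, read lower in Cy5 at each Mg time, by means of -0.15 ± 0.12, -0.20 ± 0.36, -0.18 ± 0.31 and -0.14 ± 0.23 (SD; n = 4, 7, 4 and 4) in order of time, with limma adjusted p of 0.625, 0.550, 0.524 and 0.649. Individual Mg arrays ran from -0.73 to 0.23, on both sides of 0 at each time. On the HI arrays Eif4ebp1 read 0.49, 0.01 and 0.22 at 3 h and 0.16, 0.33 and 0.26 at 12 h. The MgHI arrays read -0.14, -0.20 and -0.40 at 3 h and -0.42, -0.35 and -0.26 at 12 h. All 6 HI arrays were thus above 0 and all 6 MgHI arrays below it. How many of all probes separate in this way was not counted. Compared directly, these ratios did not pass for Eif4ebp1 at 3 h (limma adjusted p = 0.0761) or at 12 h (limma adjusted p = 0.0843), where 11.8% and 0.0161% of all probes did. The means were 0.24 ± 0.24 and 0.25 ± 0.09 after HI (limma adjusted p = 0.174 and 0.233) and -0.25 ± 0.13 and -0.35 ± 0.08 on the MgHI arrays (adjusted p = 0.182 and 0.118; n = 3 each).

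Eif4ebp2, which encodes 4E-BP2, the main 4E-binding protein of neurons, gave the largest mean of the 10 genes. Its 3 HI arrays at 12 h read 0.99, 0.86 and 0.50 and those at 3 h read -0.07, 0.47 and 0.22, a difference between times that did not pass (limma adjusted p = 0.210). The 12 h mean of 0.78 ± 0.25 (SD, n = 3) is a 1.72-fold higher signal after HI, with a 95% interval of 0.42 to 1.14 and a limma adjusted p of 0.0793, beyond the 0.05 threshold. Eif4ebp2 on the MgHI arrays read -0.07, 0.25 and 0.41 at 3 h and 0.44, -0.45 and -0.19 at 12 h, with means of 0.20 ± 0.24 and -0.07 ± 0.46. After MgSO4, the 4 arrays at 3 h read -0.39, 0.33, 0.09 and 0.12, the 7 at 6 h ran from -1.17 through a median of 0.37 to 0.57, the 4 at 12 h read -0.25, -0.12, 0.02 and 1.14, and the 4 at 24 h read -0.70, 0.08, 0.31 and -0.33. At each Mg time the arrays lay on both sides of 0, and the limma adjusted p was 0.657 or more.

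The Eif4ebp2 call at 12 h after HI depended on the processing. It passed with a background correction by normexp (0.69, limma adjusted p = 0.0461) and with no background subtraction (0.74, adjusted p = 0.0377). It also passed without replicate 3 (0.92, limma adjusted p = 0.0130), where 19.1% of all probes did.

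Mknk1, which encodes the proposed regulator Mnk1, had no mean beyond 1.5-fold. After MgSO4 its 4 arrays at 3 h read 0.13, -0.10, -0.01 and 1.04, so that replicate 4 carried the mean of 0.27 ± 0.52. The 7 arrays at 6 h ran from -0.48 through a median of 0.19 to 0.69, with replicates 3 and 7 below 0 and the other 5 above it. The 4 arrays at 12 h read -0.28, 0.01, 0.06 and -0.72 and the 4 at 24 h read 0.40, -0.49, 0.08 and -0.20, with arrays on both sides of 0 at each time.

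After HI, Mknk1 read -0.01, 0.26 and 0.18 at 3 h and -0.19, -0.52 and -0.09 at 12 h, a difference between times that did not pass (limma adjusted p = 0.244). The MgHI arrays read 0, 0.04 and 0.17 at 3 h and 0.09, 0.19 and 0.02 at 12 h. The exact 0 comes from signals that the files give with 3 significant digits. The limma adjusted p of Mknk1 was 0.447 or more in the Mg groups, 0.243 and 0.265 after HI and 0.691 and 0.560 on the MgHI arrays.

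Mknk2 encodes Mnk2, the Mnk kinase with the higher basal activity, and with Eif4ebp2 it spread most between the 6 h Mg arrays. Its 7 arrays there read -0.63, -1.15, 0.73, -0.80, -0.36, -1.20 and 0.73 for replicates 1 to 7. Replicates 3 and 7 were thus at 0.73 and the other 5 at -0.36 or below. The mean was -0.38 ± 0.81 (limma adjusted p = 0.550). Without replicates 3 and 7 it was -0.83 (limma adjusted p = 0.0142), where 18.3% of all probes passed. At 12 h the 4 arrays read 0.29, -0.44, 0.54 and 1.23, at 3 h -0.32, 0.11, 0.23 and 0.32, and at 24 h -0.60, 0.02, 0.37 and -0.23. After HI, Mknk2 read 0.04, 0.10 and 0.18 at 3 h and 0.66, 0.51 and -0.12 at 12 h. The 12 h mean of 0.35 ± 0.41 had a limma adjusted p of 0.271. Without replicate 3 it was 0.58 with a limma adjusted p of 0.0422, where 19.1% of all probes passed. In the MgHI groups the means were 0.14 ± 0.36 at 3 h and 0.13 ± 0.22 at 12 h, and at each of these times the arrays lay on both sides of 0.

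Mtor, the kinase shared by both mTOR complexes, read lower after HI at 3 h and not at 12 h. Its 3 arrays were at -0.71, -0.09 and -0.17 at 3 h (mean -0.33 ± 0.33, limma adjusted p = 0.159) and at 0.49, 0.12 and -0.24 at 12 h (mean 0.12 ± 0.37, adjusted p = 0.662). The MgHI arrays read -0.24, 0.28 and 0.40 at 3 h and 0.69, 0.31 and 0.07 at 12 h (mean 0.36 ± 0.31, limma adjusted p = 0.197). In the Mg groups the means lay between -0.11 and -0.0022, and the 7 arrays at 6 h ran from -0.52 through a median of -0.22 to 0.55.

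Rptor, the scaffold of mTOR complex 1, moved little after MgSO4, with means between -0.06 and 0.04 and a 95% interval within 1.5-fold at each of the 4 times. After HI at 3 h it read -0.42, -0.14 and -0.24, below 0 on all 3 arrays (mean -0.27 ± 0.14, limma adjusted p = 0.0806). This value passed in limma with the normexp background correction (-0.22, adjusted p = 0.0347) and with no background subtraction (-0.24, adjusted p = 0.0314). Of all probes, 23.9% and 24.7% passed under these settings. At 12 h after HI it read 0.55, -0.07 and -0.23, and on the MgHI arrays -0.44, -0.11 and 0.16 at 3 h and 0.22, 0.03 and 0.02 at 12 h.

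Rictor, the scaffold of mTOR complex 2, had no mean beyond 1.5-fold. After MgSO4 the 4 arrays at 3 h read -0.26, 0.06, 0.39 and 0.12, the 7 at 6 h ran from -0.23 through a median of -0.14 to 0.22, the 4 at 12 h read -0.24, 0.06, -0.02 and 0.41, and the 4 at 24 h read -0.40, 0.36, 0.71 and -0.05. The means were 0.08 ± 0.27, -0.09 ± 0.15, 0.05 ± 0.27 and 0.16 ± 0.48, with limma adjusted p of 0.663 or more. At 6 h the arrays lay below 0 except replicate 4. After HI, Rictor read 0.09, 0.15 and -0.01 at 3 h and 0.59, 0.16 and 0.03 at 12 h, and on the MgHI arrays -0.07, 0.25 and 0.19 at 3 h and 0.60, 0.10 and 0.21 at 12 h. At 12 h all 3 HI arrays were above 0 (mean 0.26 ± 0.29, limma adjusted p = 0.315). All 3 MgHI arrays were too (mean 0.30 ± 0.26, limma adjusted p = 0.220), with no direction in terms of animals.

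Fmr1, by its brightest probe, read higher in Cy5 at 12 and 24 h after MgSO4 and lower after HI. The 4 Mg arrays at 3 h read -0.15, 0.14, -0.01 and 0.14, the 7 at 6 h ran from -0.32 through a median of 0.26 to 0.54, the 4 at 12 h read 0.03, 0.13, 0.18 and 0.30 and the 4 at 24 h read 0.16, 0.61, 0.03 and 0.17. All 8 arrays at 12 and 24 h were therefore above 0, by means of 0.16 ± 0.11 and 0.24 ± 0.25, with 95% intervals of -0.10 to 0.41 and -0.04 to 0.52 and limma adjusted p of 0.450 and 0.484. After HI the arrays read -0.04, -0.13 and -0.19 at 3 h and -0.12, -0.28 and -0.34 at 12 h, all below 0, with means of -0.12 ± 0.08 and -0.25 ± 0.11 and limma adjusted p of 0.255 and 0.242. Fmr1 on the MgHI arrays read 0, 0.13 and 0.06 at 3 h and 0.06, 0.13 and 0.01 at 12 h.

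The array holds 3 probes for Fmr1, and they did not move together. Deviations of the brightest probe from its group means correlated at r = 0.02 and -0.12 with those of the other 2, which correlated with each other at r = 0.88 over 31 arrays. At 12 h after HI the brightest probe averaged -0.25 and the other 2 averaged 0.38 and 0.37. At 12 h on the MgHI arrays they averaged 0.07 against -0.78 and -0.78, and at 12 h after MgSO4 0.16 against 0.42 and 0.35. At 24 h after MgSO4 the brightest probe averaged 0.24 and the other 2 averaged -0.06 and 0.02, and at 6 h they averaged 0.17 against 0.09 and -0.03. On the 3 h MgHI arrays they averaged 0.07 against -0.20 and -0.08. None of these means passed the adjusted test. The sign of the Fmr1 ratio depended on the probe at 12 h in the injured groups and at 3 h on the MgHI arrays. At 3, 6 and 24 h after MgSO4, at least 1 of the other 2 probes averaged below 0. Which transcripts each probe reads was not tested.

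**Figure D3:**
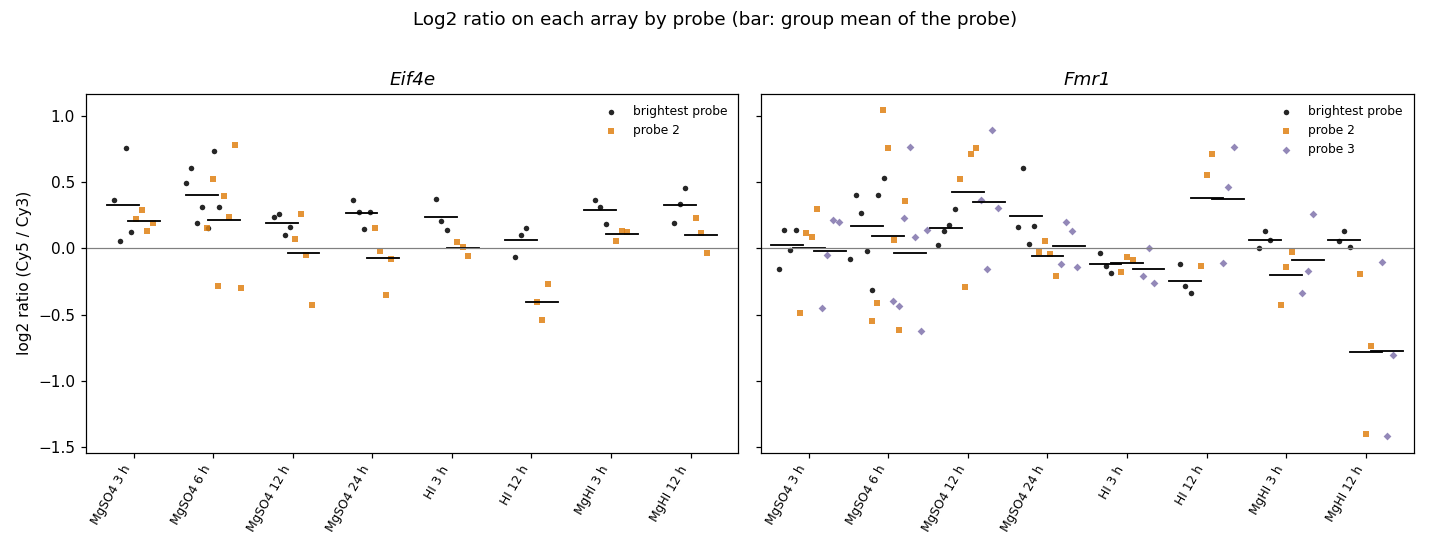
Log2 ratio of Cy5 to Cy3 (vertical axis) on each array, by group, for the 2 probes of Eif4e (left) and the 3 probes of Fmr1 (right), with a bar at each probe's group mean. At 12 h on the MgHI arrays the brightest Fmr1 probe averages 0.07 while the other 2 average -0.78 each.

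Sirt1, the deacetylase, had no mean beyond 1.5-fold. After MgSO4 the 4 arrays at 3 h read -0.21, 0.14, -0.21 and 0.12, the 7 at 6 h ran from -0.30 through a median of 0.10 to 0.55, the 4 at 12 h read 0.33, 0.06, 0.06 and 0.31 and the 4 at 24 h read 0.36, 0.32, -0.23 and 0.08. Sirt1 was above 0 on 6 of 7 arrays at 6 h and on all 4 at 12 h, with means of 0.16 ± 0.29 and 0.19 ± 0.15 and limma adjusted p of 0.563 and 0.398. After HI it read 0.15, -0.29 and -0.25 at 3 h and -0.12, -0.40 and -0.40 at 12 h, and on the MgHI arrays -0.03, -0.09 and -0.31 at 3 h and -0.06, -0.13 and -0.13 at 12 h. It was thus below 0 on 5 of 6 HI arrays and on all 6 MgHI arrays, whose ratios have no direction in terms of animals and are not the same contrast. The 12 h HI mean of -0.31 ± 0.16 had a 95% interval of -0.63 to 0.0096 and a limma adjusted p of 0.190.

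Times were compared directly. Among the 4 Mg times, limma's F test called none of the 10 genes, and it called 0% of all probes. The adjusted p of the 10 genes lay between 0.926 and 0.998, and the widest spread of time means was that of Mknk2, 0.79 between 6 h and 12 h. Without 6 h replicates 3 and 7, Mknk2 passed this test (limma adjusted p = 0.0455). Between 12 h and 3 h after HI, none of the 10 genes passed, where 0.0378% of probes did. The Mknk1 ratio was lower at 12 h by -0.41 ± 0.15 (SE, unadjusted p = 0.0311 by limma, adjusted p = 0.244) and that of Eif4ebp2 was higher by 0.57 ± 0.19 (unadjusted p = 0.0192, limma adjusted p = 0.210). The 12 h and 3 h HI arrays share 1 of their 3 slides, and with slide as a block the differences were -0.38 ± 0.30 for Mknk1 and 0.77 ± 0.34 for Eif4ebp2 (limma adjusted p = 0.550 and 0.378). On the MgHI arrays no gene passed between times, with an adjusted p of 0.999 for each of the 10, and 0% of all probes passed.

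HI arrays and MgHI arrays of the same time shared slides, which allowed their ratios to be compared, in a test that was added after the values had been seen. The quantity is the log2 ratio on the HI arrays minus that on the MgHI arrays, and since the reference samples of these arrays differ it does not measure an effect of MgSO4 alone. No gene of the 10 passed at 3 h, where 11.8% of probes did (15.1% with slide as a block), or at 12 h, where 0.0161% did (0.236% with the block). Eif4ebp1 came nearest, with a difference of 0.49 ± 0.15 (SE) at 3 h and 0.59 ± 0.13 at 12 h and limma adjusted p of 0.0761 and 0.0843 (0.0687 and 0.0543 with slide as a block). Eif4ebp2 differed by 0.85 ± 0.25 at 12 h (limma adjusted p = 0.117, and 0.0520 with the block) and by 0.01 ± 0.18 at 3 h. For Mknk1 the differences were 0.08 ± 0.12 and -0.36 ± 0.16, and for Fmr1 they were -0.18 ± 0.10 and -0.31 ± 0.14, at 3 and 12 h (limma adjusted p of 0.698 and 0.229 for Mknk1 and of 0.278 and 0.221 for Fmr1).

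The level of each transcript was also read from the channels separately, as the log2 signal minus the 75th percentile of that array and channel. Levels of different genes come from different probes and are not set against each other, and they are given with no test. Between the 16 combinations of group and channel, the mean level of Fmr1 spanned 0.56, from 0.56 ± 0.69 (SD) in the controls of the 6 h Mg arrays to 1.12 ± 0.65 in the MgSO4 samples at 24 h. That of Sirt1 spanned 0.56, from -0.51 ± 0.11 at 12 h after HI to 0.05 ± 0.23 in Cy3 of the MgHI arrays at 3 h. These were the narrowest ranges of the 10 genes.

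The widest range was that of Mknk2, 1.64, from 0.33 ± 0.46 in the controls of the 12 h Mg arrays to 1.97 ± 0.20 in the MgSO4 samples at 3 h. Its controls alone ran from 0.33 at 12 h to 1.89 ± 0.20 at 3 h, a wider range than any difference between its channels within a set. Mknk1 ran the opposite way, with its lowest level on the 3 h Mg arrays (-3.18 ± 0.49 in controls, -2.91 ± 0.16 after MgSO4) and its highest on the 24 h Mg arrays (-1.98 ± 0.38 and -2.04 ± 0.60). Rictor ranged from -3.09 ± 0.21 in the controls of the 12 h HI arrays to -1.89 ± 0.34 in the MgSO4 samples at 24 h, and in the HI sets both channels lay at -2.83 or below.

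For the other genes too, control levels differed more between sets of arrays than levels differed between the channels of a set. Mtor ranged from -1.79 ± 0.35 in the controls of the 12 h HI arrays to -0.81 ± 0.40 in those of the 3 h Mg arrays, and Rptor from 0.37 ± 0.19 in the MgSO4 samples at 6 h to 1.17 ± 0.21 in the controls at 3 h. Eif4e ranged from 2.56 ± 0.19 in the controls of the 3 h Mg arrays to 3.41 ± 0.24 in the MgSO4 samples at 6 h. Eif4ebp1 ranged from -0.12 ± 0.27 in Cy5 of the 3 h MgHI arrays to 1.07 ± 0.27 in the controls of the 12 h Mg arrays. Eif4ebp2 spanned 1.17, with its lowest mean in the 3 h Mg arrays, where replicate 3 read -4.65 in Cy3 and -4.56 in Cy5 and the other 3 arrays read between -0.42 and 0.05. Neighbours in the order of levels lay within 1 SD of each other except for Eif4e between Cy3 of the 12 h HI arrays (2.73 ± 0.05) and Cy3 of the 12 h MgHI arrays (2.60 ± 0.0013), Eif4ebp1 between the channels of the 3 h Mg arrays (0.03 ± 0.09 and -0.12 ± 0.14) and Mtor between the MgSO4 samples at 24 h (-1.08 ± 0.06) and the controls at 12 h (-1.17 ± 0.07). The 3 h Mg arrays, the later Mg arrays and the injured groups lie on separate slides, so that sets of arrays and slides cannot be told apart for levels.

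Beyond the group means, some of the transcripts deviated together from array to array. Mknk2 and Eif4ebp2 correlated at r = 0.80 over the 31 arrays after each group mean was subtracted, Mknk2 and Mtor at r = 0.73, Rptor and Mtor at r = 0.71 and Fmr1 and Sirt1 at r = 0.64. The Fmr1 value rests on its brightest probe, whose deviations correlated at r = 0.02 and -0.12 with those of the other Fmr1 probes. In the opposite direction, Eif4ebp1 and Eif4ebp2 correlated at r = -0.69, Eif4e and Eif4ebp2 at r = -0.65 and Mknk1 and Mknk2 at r = -0.51. The paralogs of each pair, the 4E-binding proteins and the Mnk kinases, thus deviated in opposite directions. The median absolute correlation between genes drawn from the whole array was 0.32, and all points share the pool, the array and its dye normalization, so that these values describe the arrays.

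**Figure D4:**
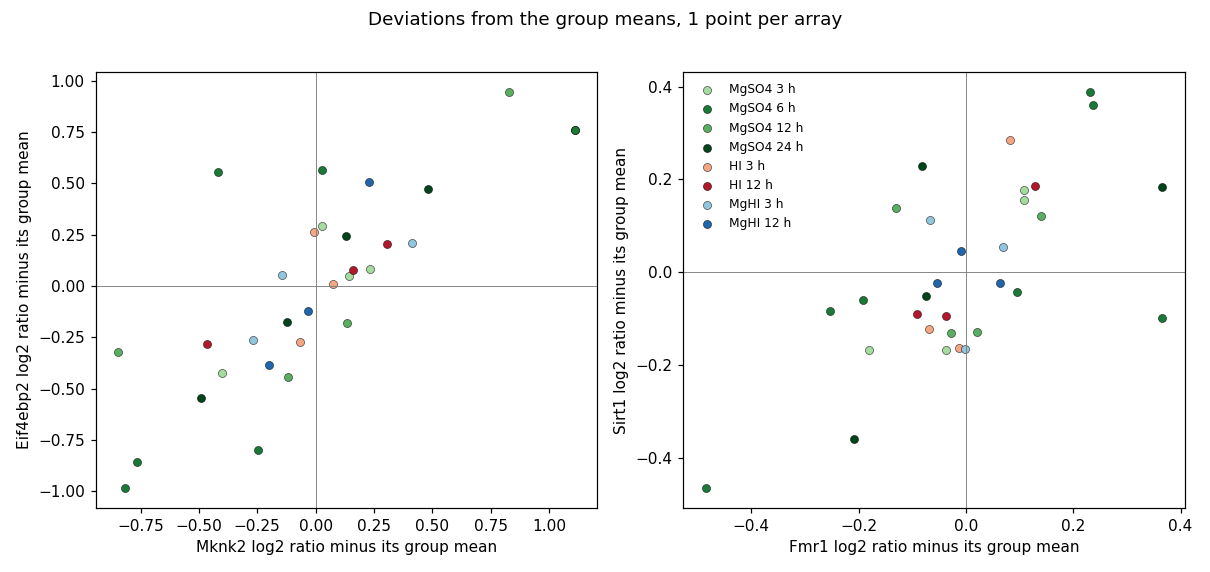
Deviation of the log2 ratio from its group mean, 1 point per array and coloured by group, for Eif4ebp2 (vertical axis) against Mknk2 (left) and Sirt1 (vertical axis) against the brightest Fmr1 probe (right). The points follow r = 0.80 on the left, where the 6 h Mg arrays reach both ends, and r = 0.64 on the right.

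The promoters of both plotted pairs are shown, since by their brightest probes Mknk2 and Eif4ebp2 had the highest correlation among the 10 genes and Fmr1 and Sirt1 the highest among the 4 regulators. Each is given 5′ to 3′ along the gene as the 250 bases before the first start that RefSeq lists (GRCm38.p6), less any bases inside the RefSeq gene model, which are 121 for Eif4ebp2 and 5 for Fmr1. For Fmr1 and Sirt1 the capitals mark CACGTG, the E-box bound by factors such as USF and Myc, which reads the same on both strands.
Fmr1 (chrX:68678291-68678535, plus strand): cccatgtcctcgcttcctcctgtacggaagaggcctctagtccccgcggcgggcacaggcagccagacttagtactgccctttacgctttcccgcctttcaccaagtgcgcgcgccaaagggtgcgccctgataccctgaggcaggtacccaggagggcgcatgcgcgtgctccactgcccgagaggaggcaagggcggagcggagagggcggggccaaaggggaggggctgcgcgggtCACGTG
Sirt1 (chr10:63339036-63339285, minus strand): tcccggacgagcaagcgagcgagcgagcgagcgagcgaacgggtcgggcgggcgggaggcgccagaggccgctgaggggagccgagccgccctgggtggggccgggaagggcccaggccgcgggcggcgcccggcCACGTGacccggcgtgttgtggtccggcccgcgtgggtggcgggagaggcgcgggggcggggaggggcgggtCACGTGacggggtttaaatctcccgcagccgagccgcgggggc
For Mknk2 and Eif4ebp2 the capitals mark GGGCGG or its reverse complement CCGCCC, the GC box bound by Sp1.
Mknk2 (chr10:80676294-80676543, minus strand): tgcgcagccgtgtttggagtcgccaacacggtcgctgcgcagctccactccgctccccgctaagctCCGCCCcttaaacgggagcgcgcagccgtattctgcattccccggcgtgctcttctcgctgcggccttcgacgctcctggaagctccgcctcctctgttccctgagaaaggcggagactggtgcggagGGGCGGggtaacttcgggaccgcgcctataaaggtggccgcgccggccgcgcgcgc
Eif4ebp2 (chr10:61452791-61452919, minus strand): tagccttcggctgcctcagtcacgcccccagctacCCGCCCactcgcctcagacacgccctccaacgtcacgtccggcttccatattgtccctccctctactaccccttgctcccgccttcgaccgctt
In these stretches Fmr1 holds 1 E-box and Sirt1 holds 2, Mknk2 holds 2 GC boxes and Eif4ebp2 holds 1. The GC box is not particular to the latter pair. On either strand, the 250 bases before the first start hold it 6 times in Sirt1, 4 times in Rictor and 2 times each in Fmr1 and Mtor. Those in the Fmr1 and Sirt1 stretches are not capitalized. Of all 32851 RefSeq promoters, read over 250 bases, 6.02% hold CACGTG and 32.7% hold GGGCGG on either strand. Among the 9 genes with a RefSeq promoter entry, 3 hold CACGTG in the 250 bases before their first listed start (Mknk1, Fmr1 and Sirt1) and 6 hold GGGCGG, and for Mknk1 all 250 of these bases lie inside the gene model. Counting any listed start, 4 hold CACGTG, since Eif4e holds it 2 times before its other start. Those 250 bases of Eif4e also lie inside the gene model. The motifs were chosen after the sequences had been read, and a match of letters is a description of the sequence.

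The genes whose ratios deviated most like those of the 4 regulators, among 13099 genes and over 31 arrays, were Tbx10 (r = 0.80), Cel (0.75) and Sun5 (0.75) for Mknk1 and Klhl2 (r = 0.88), Sphkap (0.87) and Prpf39 (0.86) for the brightest probe of Fmr1. For Sirt1 they were Nkap (r = 0.91), Fnip1 (0.89) and Otud6b (0.88), and for Rictor Tle4 (r = 0.82), Akirin2 (0.76) and Ptk2 (0.73).

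Around the 10 genes, 5 lists of pathway genes were examined in the same fits. With all arrays, members of these lists passed the test at 3 h on the HI and MgHI arrays, where 14.3% and 11.6% of all probes did, and in no other group. Of the 98 list entries tested at 3 h after HI, 7 passed. This count was 0 with any 1 of the 3 arrays left out, where 0.148%, 2.34% and 2.42% of probes passed without replicates 1, 2 and 3, and it was 28 with normexp and 24 with no background subtraction, where 23.9% and 24.7% of probes did. The 3 h MgHI arrays had 6 of 98, and 0 without replicate 2. In other groups entries passed under some settings, with 19 of 96 at 6 h after MgSO4 without replicates 3 and 7 and 15 of 96 at 12 h after HI without replicate 3, where 18.3% and 19.1% of probes passed. Of 38 mTOR complex genes and regulators, 2 rose at 3 h after HI, Ddit4 (0.59 ± 0.04, limma adjusted p = 0.0162), which encodes the hypoxia-induced mTOR inhibitor REDD1, and Sgk1 (0.46 ± 0.08, adjusted p = 0.0244), a kinase activated by mTOR complex 2. On the MgHI arrays at 3 h, 3 others were higher in Cy5, namely Akt1s1 (0.62 ± 0.05), which encodes the Raptor-bound inhibitor PRAS40, the S6 kinase gene Rps6kb2 (0.53 ± 0.16) and the Rag GTPase gene Rragb (0.53 ± 0.17). None of the 38 was called lower in either group. The median ratio of the list was 0.03 after HI and 0.03 on the MgHI arrays, against -0.03 and -0.04 over all genes.

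Of 16 cap-binding and initiation genes, 1 passed at 3 h after HI, Pdcd4 (0.35 ± 0.07, limma adjusted p = 0.0357), which encodes an inhibitor of the helicase eIF4A, and 0 passed on the MgHI arrays. Of 13 genes of kinases upstream of Mnk or of Mnk substrates, Braf rose (0.39 ± 0.13) and Sfpq, the gene of the splicing factor PSF, fell (-0.31 ± 0.07) at 3 h after HI, and Map2k1, the gene of MEK1, was higher in Cy5 on the MgHI arrays (0.46 ± 0.07). Of 13 genes of the FMRP family and its partners, Cyfip1, whose protein links FMRP to eIF4E and to actin, fell at 3 h after HI (-0.32 ± 0.11, limma adjusted p = 0.0470), and Nufip2, the gene of an FMRP-binding protein, was higher in Cy5 on the MgHI arrays (0.52 ± 0.20). Of 18 genes of sirtuins, NAD supply and Sirt1 partners that could be tested, the coactivator gene Ppargc1a rose at 3 h after HI (0.30 ± 0.04, limma adjusted p = 0.0408) and Parp1, whose protein consumes NAD, was higher in Cy5 on the MgHI arrays (0.66 ± 0.28).

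Elsewhere the pathway genes are given as values that did not pass the test. At 12 h after HI the largest mean with 1 sign on all 3 arrays in the cap-binding list was that of Pabpc1, the gene of the poly(A)-binding protein that joins both ends of a messenger RNA (1.06 ± 0.12, limma adjusted p = 0.0735). Sesn2, the gene of the stress-induced mTOR complex 1 inhibitor sestrin 2, read 0.76 ± 0.25 (limma adjusted p = 0.0799) and Braf read 0.73 ± 0.37 (adjusted p = 0.0914). The medians there were 0.25 for the cap-binding list, 0.19 for the Mnk kinase list, 0.08 for the mTOR list, 0.03 for the FMRP list and -0.0013 for the sirtuin list, against 4.09e-04 over all genes. After MgSO4, Prr5, the gene of a subunit of mTOR complex 2, averaged -0.44 ± 0.21 on the 6 h arrays and -0.55 ± 0.20 on the 24 h arrays (limma adjusted p = 0.140 and 0.264). Pdpk1, the gene of the Akt-activating kinase PDK1, read 0.32 ± 0.24, 0.54 ± 0.23 and 0.39 ± 0.23 at 3, 12 and 24 h (limma adjusted p = 0.515, 0.305 and 0.364). Cyfip1 averaged 0.35 ± 0.28 on the 12 h arrays and 0.40 ± 0.14 on the 24 h arrays (limma adjusted p = 0.315 and 0.317), above 0 on all 8 arrays.

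The study listed targets for each regulator, drawn from the same arrays, and their values are therefore not independent evidence of a direction. At 3 h after HI, where 14.3% of all probes were called, 5 of the 29 measured Mnk1 targets rose and 1 fell. Among those that rose were the co-chaperone gene Bag3 (0.67 ± 0.33), the kinesin gene Kif1b (0.44 ± 0.14), Zcchc18 (0.41 ± 0.07) and Ncdn (0.33 ± 0.11), and the RNA-binding protein gene Celf4 fell (-0.37 ± 0.14). Of 27 Fmr1 targets, 3 rose, the immediate early gene Arc (1.55 ± 0.31, limma adjusted p = 0.0124), Bag3 and the neuropeptide precursor gene Vgf (0.50 ± 0.07), and 2 fell, Celf4 and the mitochondrial ribosome gene Mrpl41 (-0.40 ± 0.10). Of 31 Sirt1 targets, 5 rose and 0 fell, namely Madd (0.71 ± 0.06), Sp110 (0.70 ± 0.05), the apelin gene Apln (0.53 ± 0.14), the RNA editing enzyme gene Adar (0.44 ± 0.12) and Cpt1a (0.39 ± 0.11), whose protein takes fatty acids into mitochondria. Of 36 Rictor targets, the insulin receptor substrate gene Irs2 rose (0.74 ± 0.24), and Ndufb4, a gene of respiratory complex I (-0.41 ± 0.05), the proteasome gene Psma7 (-0.35 ± 0.05) and the ribosomal gene Rps18 (-0.33 ± 0.10) fell. Over the 4 lists, 20 of 123 entries passed there, and 0, 5 and 3 did without replicates 1, 2 and 3. The lists overlap in part, with 4 genes shared by those of Mnk1 and Fmr1, Bag3, Camk2a, Celf4 and Map1b (13.3% and 14.8% of the lists), and Mtor is itself among the Fmr1 targets.

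On the MgHI arrays at 3 h, where 11.6% of all probes were called, 0 of 29 Mnk1 targets passed, 2 of 27 Fmr1 targets were higher in Cy5 (the synaptogyrin gene Syngr1, 0.86 ± 0.18, and Smoc1, 0.58 ± 0.21), as were 4 of 31 Sirt1 targets (Arnt2, 0.96 ± 0.32, Sp110, 0.80 ± 0.28, Madd, 0.75 ± 0.19, and H2-Q8, 0.68 ± 0.16) and 2 of 36 Rictor targets (Bsg, 0.87 ± 0.15, and Rsl24d1, 0.61 ± 0.26). No listed target passed in another group with all arrays. Without 6 h replicates 3 and 7, 22 of 29 Mnk1 targets, 23 of 27 Fmr1 targets, 24 of 31 Sirt1 targets and 3 of 36 Rictor targets passed at 6 h, with list medians of -0.67, -0.61, -0.45 and -0.0024, where 18.3% of all probes passed. Without replicate 3 of the 12 h HI arrays, 20 of 29, 16 of 27, 18 of 31 and 4 of 36 targets of Mnk1, Fmr1, Sirt1 and Rictor passed, where 19.1% of all probes did. The study drew the lists from changes on these same arrays, so counts above the shares of all probes are not evidence about the regulators.

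Counts of direction, which need no threshold, differed between times for the lists of Mnk1 and Fmr1. At 6 h after MgSO4, 25 of 29 Mnk1 targets and 25 of 27 Fmr1 targets read lower in Cy5 (medians -0.22 and -0.25), and at 12 h 28 of 29 and 24 of 27 read higher (medians 0.48 and 0.41), where the medians over all genes were -0.0038 and 0.02. At 12 h after HI, 27 of 29 and 24 of 27 read higher (medians 0.52 and 0.39), and 28 of 36 Rictor targets read lower (median -0.15). Genes of a list are not replicates, and the lists were drawn from these same arrays. Between arrays, the median of the Mnk1 targets ran from -0.91 to 0.90 at 6 h and from -0.17 to 1.03 at 12 h after MgSO4. That of the Fmr1 targets ran from -0.89 to 0.69 and from -0.18 to 1.07. Under other settings, as few as 22 Mnk1 and 21 Fmr1 targets read higher at 12 h after MgSO4. At 12 h after HI as few as 21 and 17 did, and as many as 13 Rictor targets. At 6 h after MgSO4, leaving aside the turned sign, as many as 9 Mnk1 and 4 Fmr1 targets read higher. The Mknk1 mean at 12 h after MgSO4 was -0.23 and the Fmr1 mean 0.16, with neither passing the test.

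Across the 31 arrays, with group means subtracted, Mknk1 correlated with the median of its 29 targets at r = -0.50 (Spearman's rho -0.36), and at r = -0.24 (rho -0.16) over the 24 arrays without the 6 h group. Fmr1, by its brightest probe only, correlated with the median of its targets at r = 0.30 (rho 0.34, and r = 0.37 with rho 0.45 without the 6 h arrays), Sirt1 at r = -0.26 (rho -0.24, and r = 0.17 with rho -0.04 without them) and Rictor at r = -0.26 (rho -0.34, and r = -0.30 with rho -0.39 without them). Without the 6 h arrays r changed sign for Sirt1 while rho stayed below 0, both became smaller in size for Mknk1, and regulator and targets share each array's dye normalization.

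**Figure D5:**
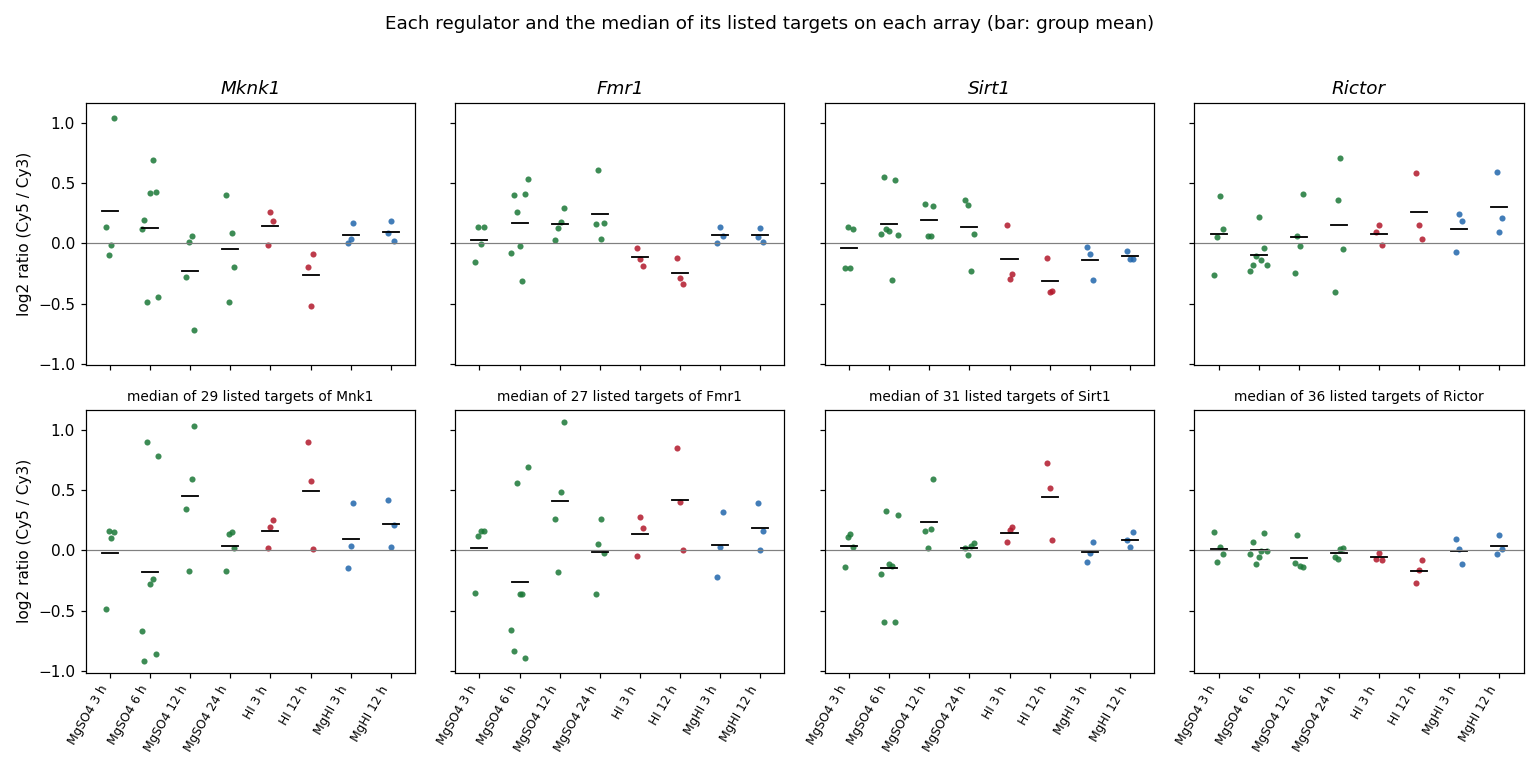
Upper panels, log2 ratio of Cy5 to Cy3 of Mknk1, Fmr1, Sirt1 and Rictor on each array, by group. Lower panels, median log2 ratio of the listed targets of each on the same arrays, with bars at group means. Target medians of Mnk1 and Fmr1 span both sides of 0 at 6 h after MgSO4, where replicates 3 and 7 lie above 0 and the other 5 below it.

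Markers of other cell types are given for some of these groups. All 6 blood markers read lower in Cy5 at 12 and 24 h after MgSO4 (medians -0.36 and -0.39) and higher at 3 and 12 h after HI (medians 0.12 and 0.32), with 0 called by limma in each. At an unadjusted p under 0.05, 3, 4, 1 and 1 of the 6 passed, where 15.7%, 11.1%, 36.1% and 27.6% of all probes did. Their summed log2 level ran from 9.43 to 9.89 in controls and from 9.01 to 9.57 after MgSO4 at 12 h, and from 8.39 to 8.68 in controls and from 8.65 to 9.55 after injury at 12 h. All 6 microglia markers read lower at 3 h after HI (median -0.22), and P2ry12 was called (-0.37 ± 0.06). Of 5 choroid plexus markers measured there, 4 read lower (median -0.17), and Kcne2 (-0.96 ± 0.31) and Otx2 (-0.35 ± 0.12) were called. The myelin gene Mbp (0.61 ± 0.22) and the synaptic gene Snap25 (0.35 ± 0.05) were called higher in the same group, where the medians of the oligodendrocyte and neuron lists were 0.04 and -0.0024. These were 5 of 40 markers tested, where 14.3% of all probes were called, a similar share. Without replicates 1, 2 and 3, 0, 2 and 1 markers passed, where 0.148%, 2.34% and 2.42% of probes did. The endothelial gene Pecam1 was called higher in Cy5 on the 3 h MgHI arrays (0.54 ± 0.07), where 11.6% of all probes were called, with a list median of -0.38 over 5 genes. The oligodendrocyte lineage markers had a median of 0.48 at 12 h after HI, where 5 of 6 read higher, and of -0.21 at 6 h after MgSO4, where 6 of 6 read lower. Their part in the ratios of the 10 genes was not tested.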

How the data were processed

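Per the file headers, the authors scanned 2-colour Agilent arrays and ran Feature Extraction 10.5.1.1 (named in the submitters' processing notes), which subtracted background and corrected dyes by LOWESS. The deposited files hold processed intensities of both channels with 3 significant digits, and the authors also deposited a series table of log10 ratios, which served as an alternative. Here each spot's log2 ratio of Cy5 to Cy3 intensity was taken, control and non-uniform or outlier spots were left out, spots of a probe were averaged, and probes well above background in at least 1 channel on at least 66.7% of a group's arrays were tested. Probes were named by RefSeq accession, 27427 of 39429 (69.6%) with 1 symbol, and the brightest probe stood for a gene. Each group's mean was tested against 0 with limma 3.58.1 (R 4.3.3), adjusted by Benjamini-Hochberg over all its tested probes, 17636 to 19260, at 0.05. Times were compared in further limma fits. Tables were made with pandas 2.3.3 and numpy 2.4.6 in Python 3.11.15. The code was tested on simulated data. Precision is limited by the 3 to 7 arrays a group.

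The 10 genes, the gene lists and the alternatives were chosen with earlier results of these data known. The text names all 10 genes, the 3 genes most alike to each regulator, and, of each list and group, up to 4 genes that passed the test with 1 sign on every array or, where none passed, up to 2 with the largest means. Ncdn, Celf4 and Cpt1a were named beyond that after their values were seen. Alternatives were normexp (offset 50) with loess, no background subtraction, other filters, outlier spots kept, the series table, slide blocks, the replicate block, a joint fit over all arrays, a fold minimum of 1.5, the methods' t-test, all probes of a gene and leaving out arrays. Promoters are from RefSeq (GRCm38.p6), which had entries for all but Eif4ebp1. Same-numbered arrays of the HI and MgHI times did not deviate together (correlations of -0.27 to -0.05 and of -0.44 to 0.05), so numbers were not treated as pairs. A gene on the target list of Mnk1 is counted there and otherwise not reported here.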

Additional observations from a re-analysis of the deposited data

Results flagged for a closer look

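Rictor on replicate 4 of the 6 h Mg arrays read 0.22, and the other 6 arrays of the group read between -0.23 and -0.04. Its gap to the nearest array was 0.571 of the group's range, just beyond Dixon's 95% critical value of 0.568 for 7 samples. Of 40 gene and group combinations of 4 to 10 arrays, 1 was beyond that value, and chance alone puts about 1 in 20 there.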

How the results depend on the processing

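Of 167 alternative counts of called genes among the 10, 156 were 0. At 6 h after MgSO4 the count was 1 in a joint fit over all 31 arrays (Eif4e, limma adjusted p = 7.72e-04). It was 2 without replicates 3 and 7 (Mknk2 and Eif4e), where 18.3% of all probes passed. At 3 h after HI it was 3 with normexp (Eif4e, Eif4ebp1 and Rptor) and 1 with no background subtraction (Rptor), where 23.9% and 24.7% of all probes passed. On the MgHI arrays at 3 h it was 1 with either (Eif4e, 0.33). At 12 h after HI it was 1 with normexp, 1 with no background subtraction and 1 by the methods' t-test unadjusted with a fold of 1.5 (Eif4ebp2 each time). Leaving out arrays gave 0 to 2 there, and 19.1% of all probes passed without replicate 3. Among the Mg times it was 1 without 6 h replicates 3 and 7 (Mknk2). The cause was not tested. Leaving out any other array left 0 genes called. Of 1309 alternative means, 55 had the opposite sign to the main value and 14 were called. With all probes averaged, Fmr1 was 0.17 at 12 h after HI, -0.50 on the 12 h MgHI arrays and -0.07 on the 3 h MgHI arrays, and Eif4e was -0.17 at 12 h after HI. With the 6 h sign turned, Eif4ebp1 read 0.20, Fmr1 -0.17, Sirt1 -0.16 and Rictor 0.09.

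With the replicate number as a block, 0 of the 10 genes passed in each comparison of times, with smallest adjusted p of 0.727 among the Mg times, 0.402 after HI and 0.999 on the MgHI arrays, and the probes called between HI times went from 7 to 0. Same-numbered Mg arrays correlated at r = -0.32 to 0.71, so these numbers pair nothing either. Slide as a random block left 0 genes called at 3 and 6 h after MgSO4 (smallest adjusted p 0.382 and 0.810) and could not be fitted for the HI and MgHI groups. Each 12 h and 24 h Mg array has a slide to itself within its group.

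The number of all probes called moved far more. At 6 h after MgSO4 it was 5, and 3225 without replicates 3 and 7. After HI it was 2708 at 3 h, 33 with no filter and 28 to 457 with an array left out (28 without replicate 1), and 2 at 12 h, with 3618 without replicate 3. On the MgHI arrays it was 2235 at 3 h (753 with no filter, 1004 without replicate 2, 3576 without replicate 1) and 0 at 12 h (1650 in the joint fit). At 3, 12 and 24 h after MgSO4 it was 0, 0 and 1, and at most 112, 605 and 174. Among the Mg times it was 0, and at most 971, and between HI times 7, and at most 78. Calls in these groups therefore rest on few arrays, and a change of under 1.5-fold would often be missed.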
